A study of Drosophila melanogaster with 12 samples.

Results

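The 33 genes described here build, fill and fuse the autophagosome, the vesicle that carries cytoplasm to the lysosome. They were chosen by name as the Atg genes, the subunits of the Vps34 lipid kinase complexes, the receptor ref(2)P, and the fusion genes of the SNARE and HOPS classes, a rule that uses no measured value. The choice was made with earlier results of these data known. All 33 were matched to 1 row each of the 17807 genes counted, and all 33 were among the 7584 genes that passed the filter on low counts. RNA of prepupal salivary glands of the fly Drosophila melanogaster was sequenced 14 h and 12 h after pupariation, in 12 libraries that form 4 groups of 3: 14 h mutants, 14 h controls, 12 h mutants and 12 h controls. The mutants (w1118 fkh>GFP; +/+; E93Δ12/E93Δ13) carry 2 mutant alleles of E93, which encodes a transcription factor induced by the steroid ecdysone. The controls (w1118 fkh>GFP; +/+; +/E93Δ1) are heterozygous for a further E93 allele, so they are not wild type. Both genotypes carry fkh>GFP, a green fluorescent reporter driven through the fork head gene, and both were fed cornmeal molasses food. The comparisons ask how an E93 mutation alters gene expression in glands of the late prepupa. The labels do not say how many animals went into a library or whether replicates were separate collections, so p-values measure the spread between these libraries only.

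Autophagy starts when the Atg1 kinase complex and the Vps34 lipid kinase mark a patch of membrane, which grows with lipid delivered by Atg9, Atg2 and the Atg18 proteins. A pair of ubiquitin-like conjugation systems then attaches Atg8a to the growing membrane, where receptors such as ref(2)P bring in cargo, and the closed vesicle fuses with the lysosome through the SNAREs Syx17, Snap29 and Vamp7 with the HOPS tethering complex. In Drosophila the larval salivary gland is destroyed during metamorphosis after a pulse of ecdysone, and both autophagy and caspases take part.

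Each library held between 6977403 and 9497317 counts, so 3 counts correspond to 0.316 to 0.43 counts per 1e+06 (CPM). Values below are CPM scaled by TMM, a method that sets libraries to a common level of most genes. The TMM factors were 1.126 to 1.261 at 14 h and 0.753 to 0.942 at 12 h, so levels at 14 h set against 12 h depend on this scaling. With library size alone, the median change of all genes from 12 to 14 h was 0.65 on the log2 scale in mutants and 0.64 in controls, against 0.14 and 0.12 with TMM. Counts of E93 itself (Eip93F) were higher in mutants at 14 h, with a log2 fold change of 1.23, and at 12 h, with 1.24. They cover the whole gene and so do not check the mutant alleles. All 10 salivary gland markers exceeded 1 CPM on average, and their summed level was 132 to 301 CPM. Gut markers, of which 3 of 8 averaged over 1 CPM, summed to 206 CPM in 12 h mutant replicate 1, 21.6 CPM in 12 h mutant replicate 2 and 100 CPM in 14 h mutant replicate 2, and to no more than 6.93 CPM in any other library. The hemocyte list, with 4 of 7 markers over 1 CPM, was carried by crq, and the muscle list, with 7 of 8, by bt. Summed muscle markers were 270 to 292 CPM in 14 h mutants, 180 to 201 CPM in 14 h controls, 1093 to 1363 CPM in 12 h mutants and 336 to 1349 CPM in 12 h controls. Of this list only bt was lower in all 14 h libraries (149 to 271 CPM) than in all 12 h libraries (310 to 1337 CPM). The others overlapped between the ages. Within controls, Mhc, Mlc2 and up were also lower at 14 h, without overlap. At 14 h bt and up were higher in all mutants than in all controls, and the other muscle markers overlapped. Summed hemocyte markers were 863 to 898 CPM in 14 h mutants, 982 to 1030 CPM in 14 h controls, 919 to 1230 CPM in 12 h mutants and 1358 to 1513 CPM in 12 h controls. This sum followed crq, and other markers of the list went the other way with age. The gene srp had 5.44 to 8.36 CPM at 14 h and 1.73 to 4.81 CPM at 12 h. Pxn was higher at 14 h within each genotype, and NimC1 was higher at 14 h in controls and overlapped in mutants. Hml, eater and He averaged under 1 CPM. Neuron markers, with 5 of 7 over 1 CPM, summed to 28.5 to 33.3 CPM in 14 h mutants, 13.7 to 16.7 CPM in 14 h controls, 4.15 to 9.62 CPM in 12 h mutants and 4.47 to 11.3 CPM in 12 h controls. At 14 h only elav, which was the largest part of the sum, and Syt1 were higher in all mutants than in all controls. Fat body markers, all 8 over 1 CPM, summed to 460 to 688 CPM in 14 h mutants, 539 to 582 CPM in 14 h controls, 400 to 535 CPM in 12 h mutants and 322 to 511 CPM in 12 h controls. Of these 8 genes, Lsp2 (174 to 303 CPM at 14 h and 42.7 to 93.4 CPM at 12 h), apolpp (59 to 111 CPM at 14 h and 23.2 to 36.5 CPM at 12 h) and Apoltp were higher in all 14 h libraries, Fdh was lower (45.8 to 55.4 CPM at 14 h and 117 to 296 CPM at 12 h), and the other 4 overlapped. No marker was at 0 in all 12 libraries, and the part of these cell types in the results below was not tested. The 12 h control replicate 1 stood nearer to the 14 h libraries than the other two 12 h controls did for several genes, for example 310 CPM against 1227 and 1314 CPM for bt. In whole glands, fewer cells of a type and less RNA per cell cannot be told apart.

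Levels were compared between genes per kilobase of annotated exon. Atg8a, the ubiquitin-like protein that coats the autophagosome, was the most abundant of the 33 genes, with a mean of 445 CPM per kb over the 12 libraries. By group its level was 363 ± 47.2 CPM per kb in 14 h mutants, 453 ± 48.7 in 14 h controls, 435 ± 32.7 in 12 h mutants and 528 ± 18.6 in 12 h controls (SD, n = 3 each). Next came Atg13, a subunit of the Atg1 kinase complex, at 240 CPM per kb, and the SNARE Snap29 at 142. The kinase Atg1 itself averaged only 2.32 CPM per kb, 27 to 121 counts in a library, and only Vps39 and Atg10 were lower. The 6 HOPS genes lay between 1.34 CPM per kb (Vps39) and 6.63 CPM per kb (Vps11), whereas the 3 SNAREs lay between 70.5 (Syx17) and 142. The lipid kinase Vps34 averaged 4.04 CPM per kb and its partner Vps15 4.41, while the other subunits ranged from 18.8 (Atg6) to 40.5 (Atg14). Atg10 was lowest at 1.18 CPM per kb, with 7 to 23 counts in a library, the fewest in total of the 33 genes.

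**Figure D1:**
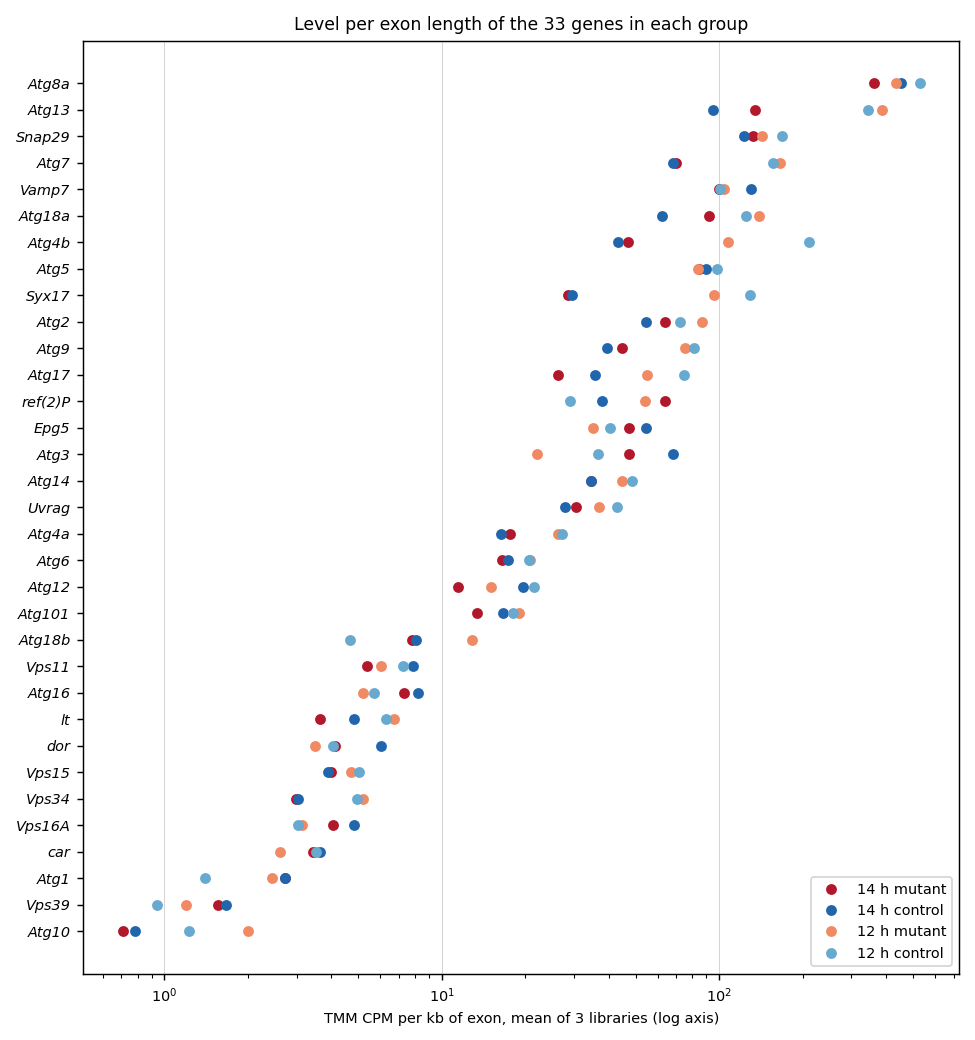
Mean level of each of the 33 genes in CPM per kb of exon on a log axis, with 1 point for each of the 14 h mutant, 14 h control, 12 h mutant and 12 h control groups (mean of 3 libraries). The genes are ordered by their mean over 12 libraries, with Atg8a at 445 CPM per kb at the top and Atg10 at 1.18 CPM per kb at the bottom.

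More of these genes were called with time than with genotype, and the same held among all tested genes. With time, 48.5% of the 33 genes were called in each genotype. Of all 7584 genes, 3417 were called with time in mutants and 3277 in controls, against 1153 between genotypes at 14 h and 1199 at 12 h. From 12 to 14 h, 3 of 33 rose and 13 fell in mutants, where 22.6% and 22.4% of all tested genes rose and fell. In controls 5 rose and 11 fell, against 20.8% and 22.4% of all tested genes. Calls were made at an edgeR adjusted p under 0.05. The median log2 change of the 33 genes was -0.34 in mutants and -0.26 in controls, beside 0.14 and 0.12 for all genes. The same 10 genes fell in both genotypes (Atg4a, Atg4b, Atg7, Atg9, Atg13, Atg14, Atg17, Atg18a, Vps34 and Syx17) and the same 3 rose (Atg3, Atg16 and Epg5), which is 81.2% of either list of calls, beside 70.9% of the mutant calls and 73.9% of the control calls among all genes. No library is shared by the mutant and the control time comparison, but both use an estimate of spread from all 12 libraries, so their calls are linked. The change had the same sign in both genotypes for 29 of 33 genes (87.9%), and for 81% of all tested genes. Across the 33 genes, which share libraries and are not independent, the changes in mutants and in controls had a Pearson correlation of 0.84 (0.78 across all 7584 genes). The split of calls depended on the scaling. With library size alone it was 11 higher and 6 lower in mutants and 13 higher and 7 lower in controls, where 4147 and 4096 of all genes were called. With RLE size factors it was 1 and 15 in mutants and 2 and 11 in controls, where 3398 and 3168 of all genes were called. Leaving out the pair of libraries richest in gut markers (replicate 1 of the 12 h mutants, replicate 2 of the 14 h mutants), with the third, replicate 2 of the 12 h mutants, kept in, gave a split of 2 and 9 in mutants and 4 and 10 in controls. With the 12 h control replicate 1 also left out it was 2 and 10 in mutants and 5 and 15 in controls. Calls among all genes were 2374 in mutants and 3099 in controls without the gut-marker pair. They were 2884 and 3559 with that control also left out. Leaving out 1 library brought the 16 control calls to 9 without 14 h control replicate 3, and to 10 without 14 h control replicate 2 or 12 h control replicate 3. Calls among all genes in controls were 2748, 2579 and 2565 in these fits, beside 3277 with every library. In mutants 1 or 2 genes rose, in place of 3, whichever library was left out, and in controls 0 rose without 14 h control replicate 3.

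**Figure D2:**
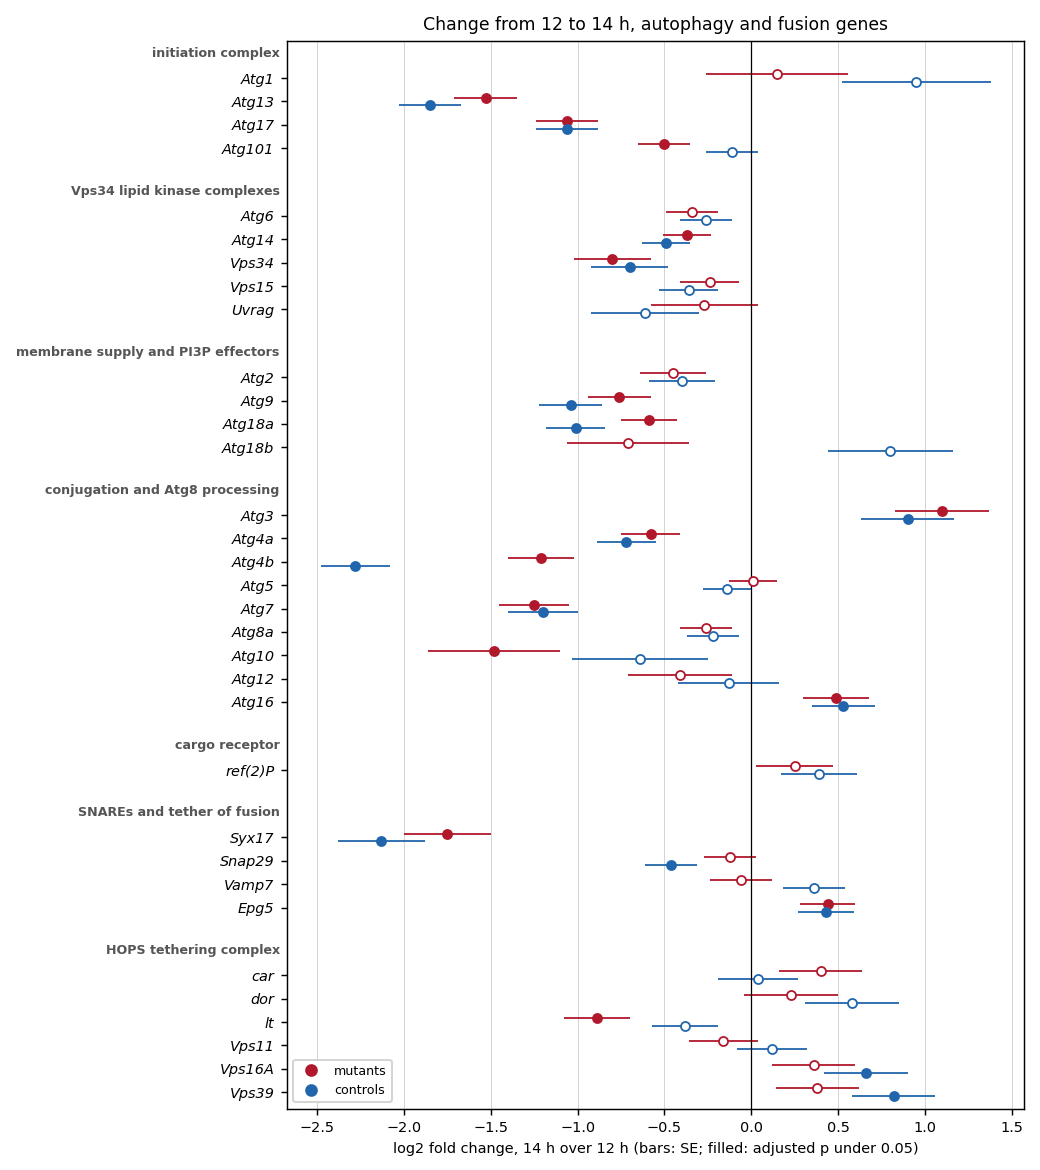
Log2 fold change of each gene, 14 h over 12 h, in mutants (red) and controls (blue), grouped by role; bars are standard errors and filled points passed an edgeR adjusted p under 0.05. Genes of the initiation, lipid kinase and membrane groups lie mostly left of 0, Syx17 reaches -1.75 in mutants and -2.13 in controls, and Atg3, Atg16 and Epg5 lie to the right in both genotypes.

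In the initiation complex, Atg13 and Atg17 fell in both genotypes. Atg13, the subunit through which nutrient signals reach the Atg1 kinase, had 485, 352 and 375 CPM in 14 h mutants and 1180, 1188 and 1123 CPM in 12 h mutants. Among controls the values were 273, 288 and 297 CPM at 14 h and 850, 1055 and 1189 CPM at 12 h. No 14 h library reached the lowest 12 h library, and the log2 fold change was -1.53 ± 0.18 in mutants (SE, edgeR adjusted p = 4e-05) and -1.85 ± 0.18 in controls (edgeR adjusted p = 1e-05). Standard errors here are approximate, computed from the fold change and the F statistic of the test. Atg17, the scaffold of the complex and the fly counterpart of mammalian FIP200, had 187, 156 and 155 CPM in 14 h mutants and 392, 344 and 304 CPM in 12 h mutants. Its values in controls were 231, 227 and 217 CPM at 14 h and 396, 431 and 580 CPM at 12 h. The ages did not overlap within either genotype, and the log2 fold change was -1.06 ± 0.18 in both (edgeR adjusted p = 0.000454 in mutants and 0.000485 in controls).

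The kinase gene Atg1 behaved otherwise. It had 10.6, 13.2 and 10 CPM in 14 h mutants and 19.4, 5.3 and 5.81 CPM in 12 h mutants. The control libraries had 11.6, 10.4 and 12 CPM at 14 h and 7.94, 4.76 and 4.67 CPM at 12 h. The 12 h mutant replicate 1, the library with 206 CPM of gut markers, was the highest of all 12, and the ages overlapped in mutants but not in controls. Neither change passed the test, with a log2 fold change of 0.15 ± 0.41 in mutants (edgeR adjusted p = 0.791) and 0.95 ± 0.43 in controls (edgeR adjusted p = 0.089). Without that library the values were 1.01 (edgeR adjusted p = 0.012) in mutants and 0.95 (edgeR adjusted p = 0.00684) in controls, so both passed. Without both libraries richest in gut markers they were 0.89 (edgeR adjusted p = 0.0421) and 0.95 (edgeR adjusted p = 0.00912). Atg101, the subunit that stabilises Atg13 in mammals, fell in mutants by 0.5 on the log2 scale (edgeR adjusted p = 0.0173), and its log2 fold change in controls was -0.11 (edgeR adjusted p = 0.586). The call in mutants was lost without 12 h mutant replicate 1 or 2, or 14 h mutant replicate 1 or 2 (edgeR adjusted p of 0.0512 to 0.0578) and with no filter (0.0643), and with library size alone the value was 0.01.

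All 5 genes of the Vps34 lipid kinase complexes had negative log2 fold changes in both genotypes, from -0.8 to -0.24 in mutants and from -0.7 to -0.26 in controls, and 2 of the 5 passed the test in each. The catalytic subunit Vps34, which makes the lipid that recruits later factors, had 9.49, 9.45 and 9.46 CPM in 14 h mutants and 15.2, 21.6 and 12.6 CPM in 12 h mutants. It had 8.62, 10.4 and 9.77 CPM in 14 h controls and 13.8, 13.8 and 19.2 CPM in 12 h controls. Every 14 h library was below every 12 h library, and the log2 fold change was -0.8 ± 0.22 in mutants (edgeR adjusted p = 0.0105) and -0.7 ± 0.22 in controls (edgeR adjusted p = 0.0216). Atg14, the subunit that directs the kinase to autophagy, fell by 0.37 in mutants (edgeR adjusted p = 0.0496) and by 0.49 in controls (edgeR adjusted p = 0.0135). Vps15, Atg6 (the Beclin 1 homologue) and Uvrag were not called in either genotype. For Uvrag, 23.8% of the exon length overlaps an antisense RNA on the opposite strand, and no strand setting of the counting is given in the sources used here. The call of Vps34 was lost in mutants without 12 h mutant replicate 2 (edgeR adjusted p = 0.0517). In controls it was lost without 12 h control replicate 3, 14 h control replicate 1 or 14 h control replicate 3 (edgeR adjusted p of 0.0553 to 0.106). The Atg14 call was lost without any 1 of 9 libraries in mutants (0.054 to 0.128) and without 12 h control replicate 3 or 14 h control replicate 2 in controls (0.0565 to 0.07). With library size alone, neither gene was called, and the log2 fold change of Vps34 was -0.27 in mutants and -0.17 in controls and that of Atg14 0.15 in mutants and 0.04 in controls.

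Among the genes that supply membrane, Atg9 and Atg18a fell in both genotypes. Atg9, a transmembrane protein whose vesicles seed the autophagosome, had 119, 135 and 124 CPM in 14 h mutants and 223, 235 and 180 CPM in 12 h mutants. In controls it had 120, 118 and 97.8 CPM at 14 h and 181, 235 and 272 CPM at 12 h. All 6 of the 14 h libraries were below all 6 of the 12 h libraries. The log2 fold change was -0.76 ± 0.18 in mutants (edgeR adjusted p = 0.00437) and -1.04 ± 0.18 in controls (edgeR adjusted p = 0.000636). Atg18a, a WIPI-type protein that binds the lipid made by Vps34, had 268, 280 and 261 CPM in 14 h mutants and 431, 445 and 344 CPM in 12 h mutants. Its values in controls were 183, 178 and 183 CPM at 14 h and 290, 400 and 407 CPM at 12 h. The ages were separate within each genotype, with a log2 fold change of -0.59 ± 0.16 in mutants (edgeR adjusted p = 0.0109) and -1.01 ± 0.17 in controls (edgeR adjusted p = 0.000443). The mutant calls were lost with library size alone, at -0.24 for Atg9 (edgeR adjusted p = 0.193) and -0.07 for Atg18a (edgeR adjusted p = 0.66). The control calls stayed, at -0.49 (edgeR adjusted p = 0.016) and -0.47 (edgeR adjusted p = 0.0112). The call of Atg18a in mutants was also lost without both libraries richest in gut markers (edgeR adjusted p = 0.0815). Atg2, a lipid transfer protein, had a log2 fold change of -0.45 in mutants (edgeR adjusted p = 0.0755) and -0.4 in controls (edgeR adjusted p = 0.112). Atg18b, a second WIPI-type gene, had -0.71 in mutants (edgeR adjusted p = 0.116) and 0.8 in controls (edgeR adjusted p = 0.0922), and is described with the genotype comparisons.

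Of the 9 conjugation genes, 2 rose and 4 fell in mutants and 2 rose and 3 fell in controls. Atg4b, a protease that trims Atg8 and later releases it from membrane, had the largest control change of the 33 genes. It had 152, 110 and 114 CPM in 14 h mutants and 282, 327 and 257 CPM in 12 h mutants. Its control values were 110, 108 and 128 CPM at 14 h and 546, 463 and 674 CPM at 12 h. The 14 h libraries of both genotypes overlapped one another, while the 12 h mutants lay between them and the 12 h controls. The log2 fold change was -1.21 ± 0.19 in mutants (edgeR adjusted p = 0.000312) and -2.28 ± 0.2 in controls (edgeR adjusted p = 5.15e-06). Atg4a, the other protease of the family, fell as well, with 74.3, 74.7 and 66.6 CPM in 14 h mutants, 116, 124 and 81.3 CPM in 12 h mutants, 71.7, 64.9 and 64.6 CPM in 14 h controls and 96.7, 115 and 119 CPM in 12 h controls. Its ages did not overlap, with -0.58 ± 0.17 in mutants (edgeR adjusted p = 0.0162) and -0.72 ± 0.17 in controls (edgeR adjusted p = 0.00502), but 51.4% of its exon length overlaps CG4629 on the opposite strand. The mutant call of Atg4a was lost without 12 h mutant replicate 1 or 2 or 14 h mutant replicate 3 (edgeR adjusted p of 0.0573 to 0.0647), and with library size alone its value was -0.05 in mutants and -0.18 in controls, neither of them called.

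Atg7, the activating enzyme of both conjugation systems, had 174, 140 and 187 CPM in 14 h mutants and 356, 456 and 378 CPM in 12 h mutants. Control glands had 166, 165 and 159 CPM at 14 h and 263, 420 and 438 CPM at 12 h, where replicate 1 was the low library. Every 14 h library was below every 12 h library, and the log2 fold change was -1.25 ± 0.2 in mutants (edgeR adjusted p = 0.000411) and -1.2 ± 0.2 in controls (edgeR adjusted p = 0.000574). Atg3, the conjugating enzyme that hands Atg8 to its lipid, rose instead. It had 48.5, 59.8 and 65.2 CPM in 14 h mutants and 28, 35.1 and 17.9 CPM in 12 h mutants. Among controls the values were 82.6, 78.8 and 87.7 CPM at 14 h and 63.8, 34 and 35.8 CPM at 12 h. The ages were separate within each genotype, although the 12 h control replicate 1 lay near the 14 h mutants. Its log2 fold change was 1.1 ± 0.27 in mutants (edgeR adjusted p = 0.00619) and 0.9 ± 0.27 in controls (edgeR adjusted p = 0.0178). The control call was lost without 12 h control replicate 2 or 3 or 14 h control replicate 3 (edgeR adjusted p of 0.053 to 0.0851).

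Atg16, which with Atg5 and Atg12 forms the complex that directs Atg8 to membrane, had 16.9 to 21.8 CPM in 14 h mutants and 12.3 to 13.9 CPM in 12 h mutants. The control libraries had 20.2 to 22.3 CPM at 14 h and 11.3 to 16.5 CPM at 12 h. It rose by a log2 fold change of 0.49 ± 0.19 in mutants (edgeR adjusted p = 0.0468) and 0.53 ± 0.18 in controls (edgeR adjusted p = 0.0358). These calls were at the margin: the mutant one was lost without any 1 of 11 libraries, all but the 12 h control replicate 2 (edgeR adjusted p of 0.0572 to 0.18), and the control one without 12 h control replicate 2 or any of the 14 h controls (0.0681 to 0.183). Both were also lost with DESeq2 (adjusted p = 0.109 in mutants and 0.055 in controls), with RLE size factors, with no filter and with only the groups compared. Atg10, the conjugating enzyme for Atg12, had 0.816, 1.1 and 1.31 CPM in 14 h mutants and 3.04, 3.29 and 2.74 CPM in 12 h mutants. In controls it had 1.29, 0.732 and 1.55 CPM at 14 h and 1.28, 2.6 and 1.73 CPM at 12 h. The ages were separate in mutants and overlapped in controls, with a log2 fold change of -1.48 ± 0.38 in mutants (edgeR adjusted p = 0.00696) and -0.64 ± 0.39 in controls (edgeR adjusted p = 0.204). The test of the difference between these changes gave an edgeR adjusted p of 0.588, and 46.6% of the exon length of Atg10 overlaps Dgk on the opposite strand.

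Atg8a itself had 551, 591 and 705 CPM in 14 h mutants and 759, 779 and 675 CPM in 12 h mutants. Its control values were 694, 752 and 857 CPM at 14 h and 931, 872 and 883 CPM at 12 h. The ages overlapped in mutants and did not in controls, where the gap was small. Its log2 fold change was -0.26 ± 0.15 in mutants (edgeR adjusted p = 0.19) and -0.22 ± 0.15 in controls (edgeR adjusted p = 0.272), so neither was called. DESeq2 called the mutant change, at -0.37 (adjusted p = 0.0297). Atg5 and Atg12, the pair joined by the second conjugation system, had log2 fold changes between -0.41 and 0.01 in the 2 genotypes and were not called. The receptor ref(2)P, the fly p62, which links ubiquitinated cargo to Atg8a, had a log2 fold change of 0.25 ± 0.22 in mutants (edgeR adjusted p = 0.382) and 0.39 ± 0.22 in controls (edgeR adjusted p = 0.182). It was called with library size alone, at 0.73 in mutants (edgeR adjusted p = 0.0213) and 0.92 in controls (edgeR adjusted p = 0.0071).

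Of the fusion genes, Syx17 changed most. This SNARE is placed on the closed autophagosome and pairs with Snap29 and Vamp7; its gene lies on chromosome 3L at 4403487 to 4405168 of the BDGP6.54 annotation. It had 48.1, 39 and 46.3 CPM in 14 h mutants and 174, 179 and 96.3 CPM in 12 h mutants. Control glands had 43.6, 44.1 and 50.4 CPM at 14 h and 151, 246 and 208 CPM at 12 h. The 14 h libraries of both genotypes occupied the same narrow range, below all 12 h libraries. The log2 fold change was -1.75 ± 0.25 in mutants, the largest fall there (edgeR adjusted p = 0.000143), and -2.13 ± 0.25 in controls (edgeR adjusted p = 3.72e-05). Its partners had smaller values: Snap29 had a log2 fold change of -0.12 in mutants (edgeR adjusted p = 0.555) and fell by 0.46 in controls (edgeR adjusted p = 0.028), and Vamp7 had -0.06 in mutants (edgeR adjusted p = 0.808) and 0.36 in controls (edgeR adjusted p = 0.122). The call of Snap29 was lost with no filter (edgeR adjusted p = 0.085), without 12 h control replicate 2 or 3 and without any of the 14 h controls (edgeR adjusted p of 0.0524 to 0.111), and with library size alone its value was 0.07. Epg5, a tether that links the autophagosome to the late endosome in mammals and worms, rose by 0.44 in mutants (edgeR adjusted p = 0.0434) and 0.43 in controls (edgeR adjusted p = 0.0469). Both Epg5 calls were lost when any 1 of the 12 libraries was left out (edgeR adjusted p of 0.0504 to 0.242 in mutants and 0.053 to 0.239 in controls), and with DESeq2 (adjusted p = 0.107 in mutants and 0.0843 in controls).

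**Figure D3:**
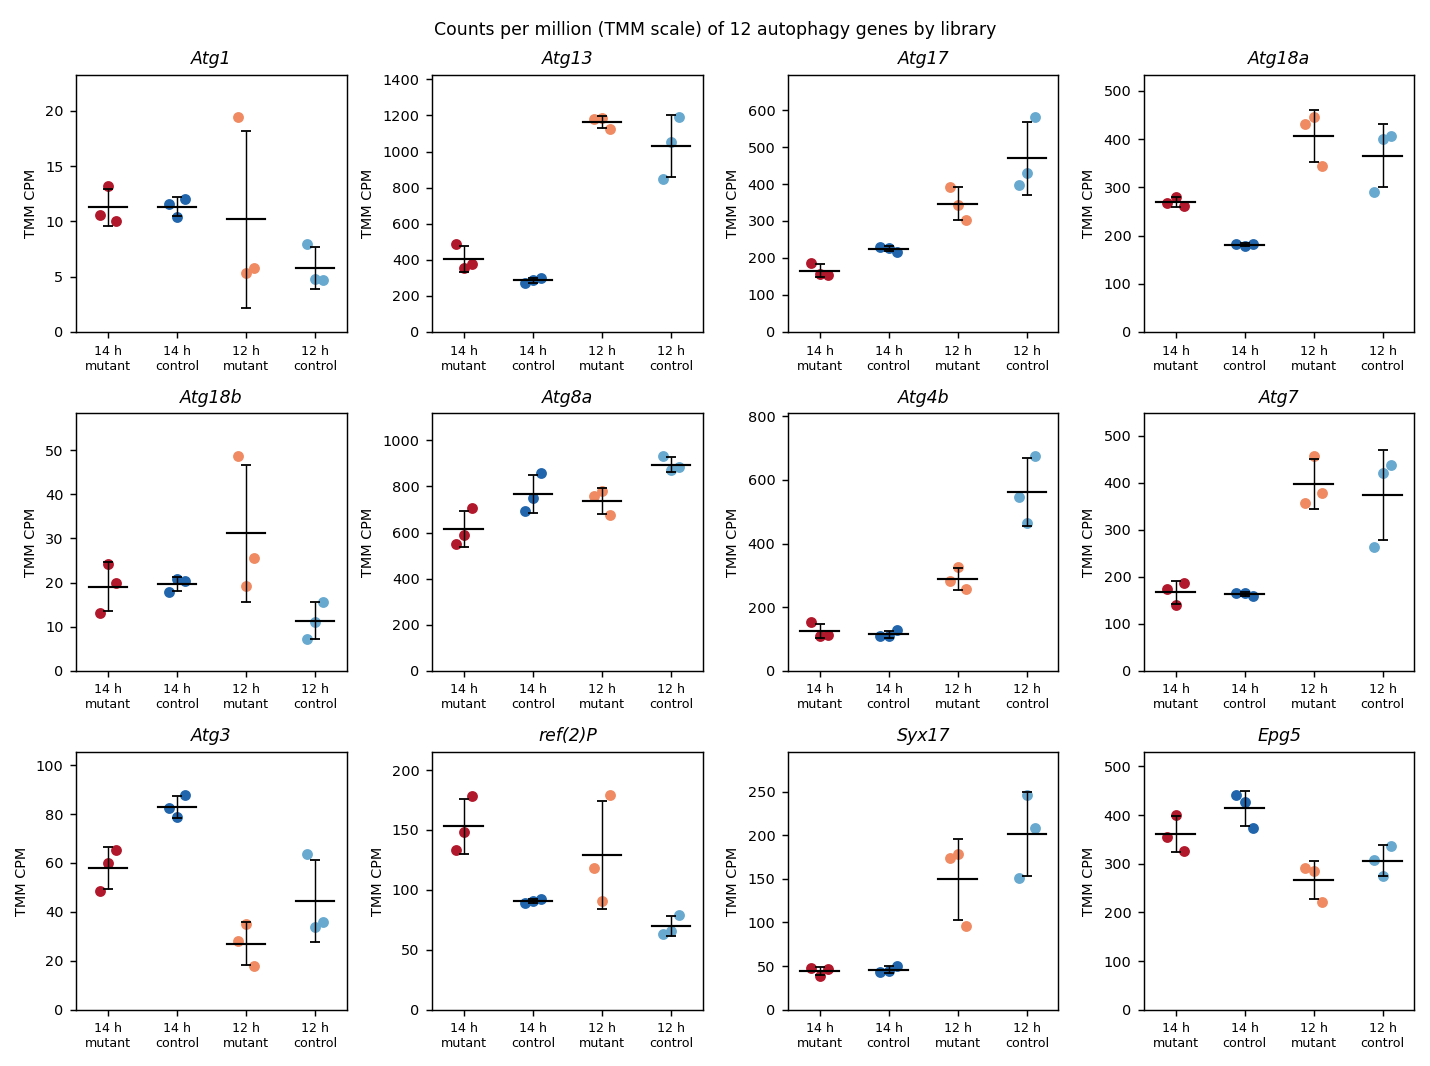
TMM-scaled CPM of 12 of the genes in each of the 3 libraries of the 14 h mutant, 14 h control, 12 h mutant and 12 h control groups (points), with the mean (line) and SD (bar); each panel has its own axis from 0. Syx17, Atg7, Atg13 and Atg17 are low in all 6 of the 14 h libraries, Atg3 and Epg5 are higher at 14 h than at 12 h within each genotype, and 12 h mutant replicate 1 stands alone at 19.4 CPM for Atg1 and 48.6 CPM for Atg18b.

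The HOPS genes, whose product bridges the autophagosome and the lysosome before fusion, did not share 1 direction: of 6 genes, 1 was called in mutants, where it fell, and 2 in controls, where they rose. The subunit lt (Vps41) had 18.6, 17.8 and 22.1 CPM in 14 h mutants and 31.9, 34.5 and 41.8 CPM in 12 h mutants. Among controls the values were 21.7, 25 and 31.2 CPM at 14 h and 27.4, 37.4 and 36.3 CPM at 12 h. Its ages were separate in mutants and overlapped in controls, and it fell by 0.89 ± 0.19 in mutants (edgeR adjusted p = 0.00288) with -0.38 ± 0.19 in controls (edgeR adjusted p = 0.136). Vps39, a subunit at one end of the complex, had 4.9, 4.29 and 4.49 CPM in 14 h mutants and 2.88, 3.58 and 4.03 CPM in 12 h mutants. The control libraries had 4.36, 5.02 and 5.22 CPM at 14 h and 3.33, 2.31 and 2.6 CPM at 12 h. Each genotype had its 14 h libraries above its 12 h libraries, and the gene rose in controls, by 0.82 ± 0.24 (edgeR adjusted p = 0.0166), while the mutant value was 0.38 ± 0.24 (edgeR adjusted p = 0.214). Vps16A, a core subunit, had 10.6, 10.3 and 12.3 CPM in 14 h mutants and 9.13, 8.59 and 8.06 CPM in 12 h mutants. In controls it had 13.4, 14.4 and 11.9 CPM at 14 h and 9.73, 10.2 and 5.02 CPM at 12 h. Its ages did not overlap in either genotype, and it rose in controls by 0.66 ± 0.24 (edgeR adjusted p = 0.0417), with 0.36 ± 0.24 in mutants (edgeR adjusted p = 0.234). The difference between the genotypes in these changes was not called for any of the 3 genes, with edgeR adjusted p of 0.478 for lt, 0.672 for Vps39 and 0.808 for Vps16A. The subunits car (Vps33A), dor (Vps18) and Vps11 were not called in either genotype and had log2 fold changes from -0.16 to 0.4 in mutants and from 0.04 to 0.58 in controls. The Vps39 call was lost without 12 h control replicate 2, 14 h control replicate 2 or 14 h control replicate 3 (edgeR adjusted p of 0.0503 to 0.074) and the Vps16A call without any 1 of 8 libraries (0.0512 to 0.148), and both were lost with no filter (0.0748 for Vps39 and 0.0955 for Vps16A). With library size alone the lt value was -0.38 in mutants (edgeR adjusted p = 0.0914).

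Few of the 33 genes differed between genotypes, while 1153 of all 7584 tested genes did at 14 h and 1199 at 12 h. With both directions together, as in those totals, the calls were 6.06% of the 33 genes at 14 h and 9.09% at 12 h. The background percentages that follow are for each direction apart, and a difference from the background was not tested. At 14 h, 2 were higher in mutants and 0 were lower, where 8.29% of all tested genes were higher and 6.91% lower. At an unadjusted p under 0.05, 3 were higher and 3 were lower at 14 h, and the share of all genes is not given here. DESeq2 and limma voom each called 2 higher and 0 lower, where they called 1412 and 1270 of all genes. At 12 h, 2 were higher and 1 was lower in mutants, where 7.94% and 7.87% of all tested genes were. The median log2 difference of the 33 genes was -0.07 at 14 h and -0.09 at 12 h, beside 0.05 and 0.01 for all genes. The sign was the same at both times for 16 of 33 genes (48.5%), and for 69.9% of all tested genes; no library is shared by these comparisons. The 14 h count was 0 without 12 h control replicate 2, any of the 14 h controls, or 14 h mutant replicate 1 or 2, and 0 without both libraries richest in gut markers. It was 1 without 12 h control replicate 3 or any of the 12 h mutants, and 3 without 12 h control replicate 1. Without 14 h mutant replicate 3 it was also 1, but the gene was Atg12, which was lower (-1.22, edgeR adjusted p = 0.0133). Among all genes, 701 to 767 were called at 14 h without 1 of the 14 h controls, and 793 to 881 without 1 of the 14 h mutants. This number was 1105 without 12 h control replicate 2 and 784 without both libraries richest in gut markers. The 12 h count was 1 without 12 h control replicate 2 and 1 without both libraries richest in gut markers, where 982 and 677 of all genes were called.

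**Figure D4:**
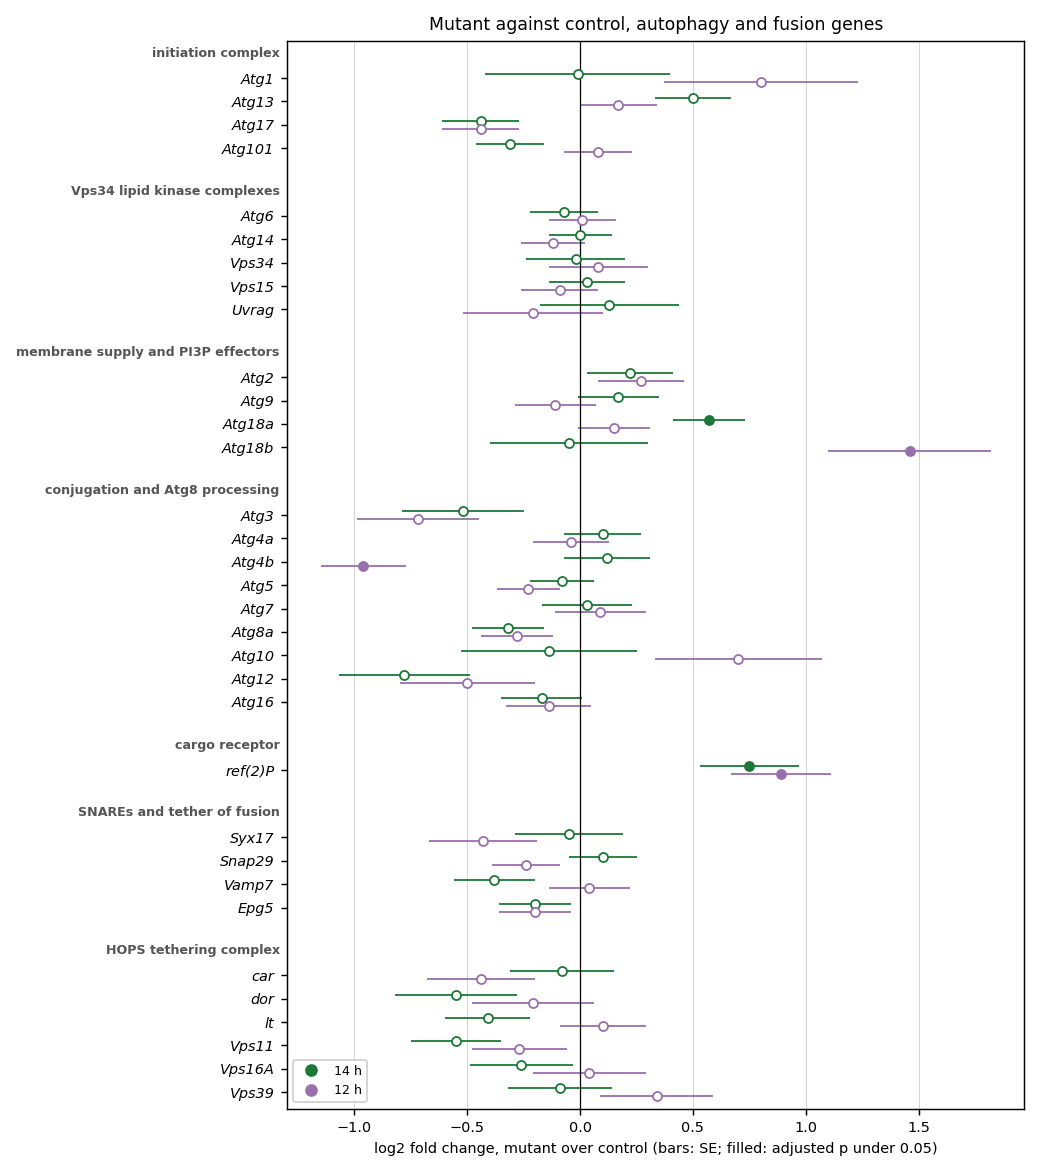
Log2 fold change of each gene, mutant over control, at 14 h (green) and at 12 h (purple), grouped by role; bars are standard errors and filled points passed an edgeR adjusted p under 0.05. The cargo receptor ref(2)P is filled at both times, at 0.75 and 0.89, and most other genes are open and lie within 0.5 of 0.

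The cargo receptor ref(2)P was the only one of the 33 genes called at both times. It had 133, 148 and 178 CPM in 14 h mutants and 89.4, 90.6 and 92.7 CPM in 14 h controls. At 12 h it had 118, 90.3 and 179 CPM in mutants and 63.5, 65.9 and 79.1 CPM in controls. Mutants were above controls in all libraries at each time, most widely spread in the 12 h mutants. The log2 fold change was 0.75 ± 0.22 at 14 h (edgeR adjusted p = 0.0373) and 0.89 ± 0.22 at 12 h (edgeR adjusted p = 0.0181). The 14 h call was lost without 12 h control replicate 2 or any 1 of the 6 libraries of that age (edgeR adjusted p of 0.0524 to 0.147). The 12 h call was lost without 12 h control replicate 1, 12 h control replicate 2 or 12 h mutant replicate 3 (0.0576 to 0.0807), where the values were 0.77, 0.82 and 0.57. Without both libraries richest in gut markers the log2 fold change was 0.78 at 14 h (edgeR adjusted p = 0.106) and 0.96 at 12 h (edgeR adjusted p = 0.0542). The 14 h call was also lost with library size alone (0.0599) and the 12 h call with only the groups compared (0.127).

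Atg18a, the lipid-binding WIPI-type protein, was also higher in 14 h mutants, with 268, 280 and 261 CPM against 183, 178 and 183 CPM in 14 h controls. Those groups did not overlap, and the log2 fold change was 0.57 ± 0.16 (edgeR adjusted p = 0.0337). At 12 h the groups overlapped, with 431, 445 and 344 CPM in mutants and 290, 400 and 407 CPM in controls and a log2 fold change of 0.15 ± 0.16 (edgeR adjusted p = 0.577). The 14 h call was lost without any 1 of 11 libraries, all but the 12 h control replicate 1 (edgeR adjusted p of 0.0508 to 0.123), with RLE size factors (0.0713) and with no filter (0.0784), while the log2 fold change stayed between 0.53 and 0.59 without any 1 library. In the 14 h mutants the summed neuron markers were 28.5 to 33.3 CPM, against 13.7 to 16.7 CPM in the 14 h controls. The largest part of that sum was elav, with 15.6 to 18.4 CPM in 14 h mutants and 6.74 to 10.1 CPM in 14 h controls. Syt1 was also higher in those mutants, while nSyb, brp, para, Rdl and futsch overlapped between the genotypes. The part of these markers was not tested.

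At 12 h the protease gene Atg4b was lower in mutants, with 282, 327 and 257 CPM against 546, 463 and 674 CPM in controls. The groups did not overlap, and the log2 fold change was -0.96 ± 0.19, which is 1.94-fold lower (edgeR adjusted p = 0.00498). At 14 h the groups overlapped, with 152, 110 and 114 CPM in mutants and 110, 108 and 128 CPM in controls and a log2 fold change of 0.12 ± 0.19 (edgeR adjusted p = 0.758). This was the only genotype call that held in all 23 alternative analyses at the same threshold, with log2 fold changes of -1.11 to -0.8 at 12 h. Atg18b was higher in 12 h mutants, with 48.6, 19.2 and 25.6 CPM against 7.3, 11.1 and 15.7 CPM in 12 h controls. The groups were separate, with the library richest in gut markers at the top, and the log2 fold change was 1.46 ± 0.36 (edgeR adjusted p = 0.0174). Its 14 h values were 13.2, 24.2 and 19.8 CPM in mutants and 17.9, 20.8 and 20.3 CPM in controls, which overlapped (log2 fold change of -0.05, edgeR adjusted p = 0.953). The 12 h call of Atg18b was lost without 12 h mutant replicate 1 (0.99, edgeR adjusted p = 0.0763), 12 h control replicate 1 (1.15, edgeR adjusted p = 0.0642) or 12 h control replicate 2 (1.4, edgeR adjusted p = 0.0626), without both libraries richest in gut markers (0.99, edgeR adjusted p = 0.0826) and with only the groups compared (1.42, edgeR adjusted p = 0.0934). With both of those gut-marker libraries and 12 h control replicate 1 left out, its log2 fold change was 0.69 (edgeR adjusted p = 0.148).

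The core genes Atg1, Atg8a and Syx17 were not called between genotypes. For Atg1, whose library values are given above, the log2 fold change was -0.01 ± 0.41 at 14 h (edgeR adjusted p = 0.995) and 0.8 ± 0.43 at 12 h (edgeR adjusted p = 0.242). Leaving out the 12 h mutant replicate 1 gave a 12 h value of -0.07. For Atg8a it was -0.32 ± 0.16 at 14 h, with overlapping libraries (edgeR adjusted p = 0.206), and -0.28 ± 0.16 at 12 h, with all 12 h mutants below all 12 h controls (edgeR adjusted p = 0.254). For Syx17 it was -0.05 ± 0.24 at 14 h (edgeR adjusted p = 0.929) and -0.43 ± 0.24 at 12 h (edgeR adjusted p = 0.253). The 6 HOPS genes all had negative values at 14 h, from -0.55 (Vps11 and dor) to -0.08 (car), with a median of -0.33, and none of them was called. Other values that came near the threshold at 14 h were Atg13 at 0.5 (edgeR adjusted p = 0.0742), Vps11 at -0.55 (edgeR adjusted p = 0.0907) and Atg12 at -0.78 (edgeR adjusted p = 0.0987). For Vps11 27.7% of the exon length overlaps an antisense RNA and for Atg12 13.6% overlaps ND-SGDH, both on the opposite strand. A fit of the 14 h groups alone called 7 of the 33 genes (21.2%), where it called 29.4% of all genes it tested, adding to ref(2)P and Atg18a the gene Atg13 among the higher and Atg3, Atg17, dor and Vps11 among the lower.

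The difference of the genotype effects, 14 h minus 12 h, was called for 0 of the 33 genes in either direction, where 1.75% of all tested genes were called positive and 0.963% negative. At an unadjusted p under 0.05 there were 1 positive and 1 negative gene, Atg4b and Atg18b, and DESeq2 and limma voom each called 1 gene, Atg4b. For Atg4b the difference was 1.08 ± 0.26 on the log2 scale (edgeR adjusted p = 0.0525), with adjusted p of 0.0128 from DESeq2 and 0.0495 from limma voom; without 12 h control replicate 1 the edgeR adjusted p was 0.0368. For Atg18b it was -1.51 ± 0.5 (edgeR adjusted p = 0.167). The other 31 genes had differences between -0.84 (Atg10) and 0.42 (Atg18a), and the median of all 33 was -0.04, beside 0.05 for all genes.

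A further 31 genes of upstream control, lipid handling, selective autophagy and lysosomal tethering were counted for comparison, of which 30 passed the filter. The other one, fab1, had 0 counts in all libraries, and its exons are shared with CG33981. From 12 to 14 h 5 rose and 7 fell in mutants and 6 rose and 7 fell in controls, and their median log2 change was -0.01 in mutants and 0.12 in controls, beside 0.14 in mutants and 0.12 in controls for all genes. Among all tested genes 22.6% rose and 22.4% fell in mutants and 20.8% rose and 22.4% fell in controls, so these counts are near the background. The rises were led by Tor, the growth kinase that restrains Atg1 (1.19 in mutants, 1.57 in controls), its complex partner raptor (1.2 in mutants, 1.42 in controls), and Vps8, a subunit of the CORVET tether (1.95 in mutants, 1.43 in controls). The edgeR adjusted p of these 3 genes was at most 0.00466 in mutants and 0.00155 in controls; 23.5% of the exon length of raptor is shared with Mipp2 on the same strand. The falls were led by bchs (Blue cheese), a large BEACH-domain protein that clears protein aggregates. It had 95.9, 101 and 94.9 CPM in 14 h mutants and 1186, 889 and 835 CPM in 12 h mutants. Its control values were 121, 107 and 108 CPM at 14 h and 633, 1703 and 2308 CPM at 12 h. Ages did not overlap, and the log2 fold change was -3.32 ± 0.37 in mutants (edgeR adjusted p = 3.37e-05) and -3.79 ± 0.38 in controls (edgeR adjusted p = 1.4e-05). Next were SNF4Agamma, a regulatory subunit of the energy sensor AMPK (-1.76 in mutants, -1.7 in controls), and Keap1 (-1.75 in mutants, -1.64 in controls), both with an edgeR adjusted p of at most 0.00622.

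**Figure D5:**
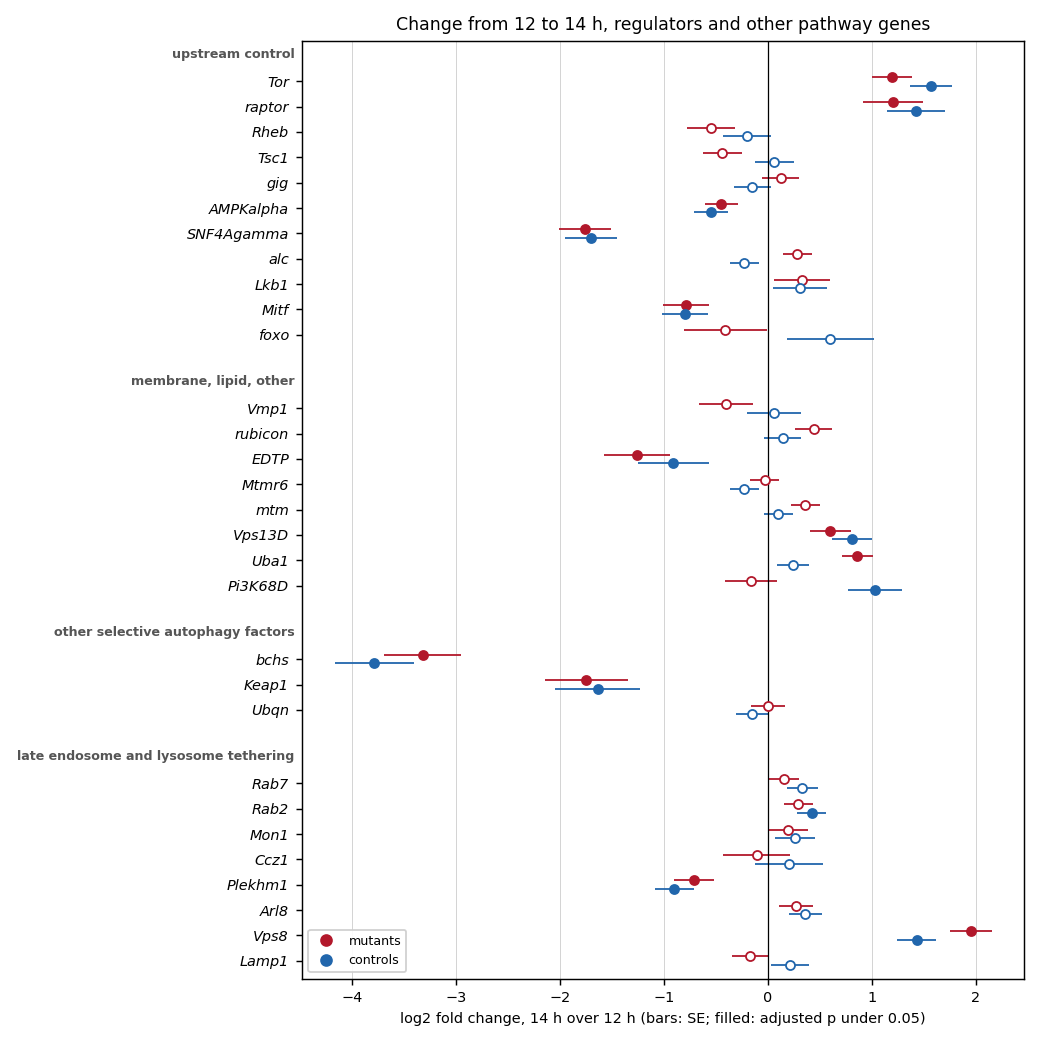
Log2 fold change, 14 h over 12 h, of the 30 tested regulators and other pathway genes in mutants (red) and controls (blue); bars are standard errors and filled points passed an edgeR adjusted p under 0.05. Tor, raptor and Vps8 lie above 1 and SNF4Agamma, Keap1 and bchs below -1.5 in both genotypes, with bchs farthest at -3.32 in mutants and -3.79 in controls.

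Between genotypes, 0 of the 30 tested pathway genes were higher in 14 h mutants and 1 was lower, Tsc1, an inhibitor of Tor signalling (-0.8, edgeR adjusted p = 0.0123), where 8.29% of all tested genes were higher and 6.91% lower. At an unadjusted p under 0.05, 1 was higher and 2 were lower at 14 h, and the share of all genes is not given here. DESeq2 called 0 higher and 2 lower at 14 h, and limma voom 0 higher and 1 lower. At 12 h 1 was higher and 2 were lower, where 7.94% and 7.87% of all tested genes were. The higher one was the class II lipid kinase Pi3K68D, with 73.1, 47.1 and 91.1 CPM in mutants and 27.5, 14.7 and 17.1 CPM in controls. Those groups did not overlap (log2 fold change of 1.83 ± 0.27, edgeR adjusted p = 0.000769). Both genes lower in 12 h mutants were Vps8 (-0.85, edgeR adjusted p = 0.0155) and alc, the beta subunit of AMPK (-0.59, edgeR adjusted p = 0.015). The difference of the genotype effects was called for 0 of the 30 by edgeR. There 2 were positive and 1 negative at an unadjusted p under 0.05, DESeq2 called 1 positive and 1 negative, and limma voom called 0.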

How the data were processed

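The table the authors deposited gives raw counts, whole numbers of reads for every gene, with no normalization. The submitters' processing notes name STAR 2.7.6a, cutadapt 1.16, DESeq2 1.30.1 and featureCounts 1.6.3, with the build BDGP6; whether counting used strand, how reads with several positions were treated and which annotation release was used are not given in the sources used here. Gene symbols, exon lengths and positions come from tables of the reference annotation BDGP6.54, where the gene called Vps34 here is listed as Pi3K59F, Tor as mTor and Vmp1 as Tango5. Genes were filtered with filterByExpr, libraries scaled by TMM and all 12 libraries fitted with 4 group means (8 residual degrees of freedom) by the quasi-likelihood test of edgeR 4.0.16 in R 4.3.3, with Benjamini-Hochberg adjustment over 7584 genes. Intervals given by 3 counts cover counting error only. The edgeR steps were run on simulated counts with known changes in the 12 h mutants only. Those counts had the same spread for all genes and no difference between ages, so they do not check the scaling between ages. Alternatives used DESeq2 1.42.0, limma voom (limma 3.58.1), other scaling, filters and thresholds, the compared groups alone, a replicate block, and left-out libraries. Values per library are given for called genes in order of fold change, up to 12 a comparison, and for Atg1, Atg8a, ref(2)P, Atg18a and Syx17; further pathway genes were named up to 3 a direction. The genes and lists were chosen with earlier results of these data known. Replicate numbers were not taken as pairs: over 18 same-number pairs, deviations from group means correlated at -0.257 to 0.238, and 3 pairs were over 0.1.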

Additional observations from a re-analysis of the deposited data

How the results depend on the processing

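Of the 33 genes, 2 were called between genotypes at 14 h, 3 at 12 h, 16 with time in each genotype and 0 for the difference of effects. An adjusted p under 0.01 left 0 at 14 h and 1 at 12 h, and 9 with time in mutants and 8 in controls. That threshold left 636 of all genes at 14 h, 520 at 12 h, 2366 with time in mutants and 2209 in controls. At 14 h the count was 1 with RLE size factors, 1 with library size alone and 1 with no filter. Of all genes, those fits called 1151, 1116 and 1144. The 14 h count was 7 with only the groups compared (21.2%, beside 29.4% of all genes). It was 0 without both libraries richest in gut markers, also with the 12 h control replicate 1 left out. At 12 h it was 1 with only the groups compared (3.03%, beside 7.17% of all genes) and 1 without both libraries richest in gut markers, also with the 12 h control replicate 1 left out. Without both of those libraries, 784 of all genes were called at 14 h and 677 at 12 h. With that control also left out, the numbers were 1271 and 792. With no filter 10 of the 33 genes and 2958 of all genes were called with time in controls. The difference was called for 1 gene with DESeq2, limma voom, library size alone and a filter of 5 CPM in 3 libraries. Of all genes, those settings called 338, 208, 215 and 233. Leaving out 1 library gave 0 to 3 calls at 14 h, 1 to 4 at 12 h, 11 to 16 with time in mutants, 9 to 20 in controls and 0 to 1 for the difference. Among all genes the same fits called 701 to 1586 at 14 h and 798 to 1186 at 12 h. With time they called 2907 to 3650 in mutants and 2515 to 3610 in controls, and 105 to 430 for the difference. The replicate block gave 1 at 14 h, 3 at 12 h, 13 with time in mutants, 14 in controls and 0 for the difference. Of all genes it called 1103 at 14 h, 1041 at 12 h, 3322 with time in mutants, 3153 in controls and 158 for the difference. The labels do not say whether replicate numbers mark a shared batch, and 5 of 12 libraries correlated best with their own number. With 3 libraries in a group, this check is too small to exclude one. With library size alone, 4 calls turned sign: Atg14 (0.15) and Atg101 (0.01) in mutants, and Atg14 (0.04) and Snap29 (0.07) in controls; that scaling moves the median of all genes. Called with time in all 23 alternatives at the same threshold were Atg4b, Atg7, Atg13, Atg17 and Syx17 in both genotypes, Atg9 and Atg18a in controls and Atg3 in mutants; Atg10 in mutants was called in the 22 that tested it. With the replicate block Atg18a at 14 h had 0.57 (adjusted p = 0.054). Where no cause is given, the cause was not tested. Counting error is largest relative to the value for Atg10, with 7 to 23 counts in a library; it was not separated from other spread.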
